A study of Mus musculus with 20 samples.

Results

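The SOD1G93A effect was compared between 2 muscles, the gastrocnemius of the hindlimb and the triceps of the forelimb, as a difference of differences: SOD1G93A minus NTg in gastrocnemius, minus SOD1G93A minus NTg in triceps. It rests on 16 of the 20 arrays of the series, 4 in each of 4 groups: SOD1G93A gastrocnemius, NTg gastrocnemius, SOD1G93A triceps and NTg triceps. SOD1G93A mice carry a transgene of mutant human SOD1, and NTg mice do not. All were female C57BL/6 mice of 14 weeks, and the design text gives 4 mice of each genotype for both muscles. The labels call the arrays biological replicates without saying which 2 muscles came from the same animal. The 4 arrays of nerve-crushed gastrocnemius are not used here.

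Mutant SOD1 causes a familial form of amyotrophic lateral sclerosis, and mice with such a transgene lose motor neurons and become paralysed, with hindlimb weakness usually appearing before forelimb weakness. Muscle fibres that lose their nerve re-express embryonic acetylcholine receptor subunits and myogenic regulators along the whole fibre, and they waste through proteasomal and autophagic breakdown. Gastrocnemius in the mouse mixes mostly fast fibres with some slow fibres, while triceps is almost wholly fast. A positive value of the muscle difference means that the SOD1G93A effect was higher in gastrocnemius than in triceps, which a stronger rise in gastrocnemius or a stronger fall in triceps can both give, so the effect in each muscle is printed beside it.

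Each array was a whole-muscle RNA sample, and the values are MAS5 signals on a log2 scale. Array medians lay between 6.61 and 6.76. Within-group correlations over probe sets were 0.941 to 0.979 in SOD1G93A gastrocnemius, 0.976 to 0.981 in NTg gastrocnemius, 0.921 to 0.967 in SOD1G93A triceps and 0.934 to 0.971 in NTg triceps, so the NTg gastrocnemius arrays were the most alike and the SOD1G93A triceps arrays the least. The description of NTg triceps replicate 4 names gastrocnemius, while its title, source and tissue name triceps. Its median over slow-fibre sarcomere genes was 5.39, just below the other triceps arrays (5.59 to 7.93) and far below the gastrocnemius arrays (9.95 to 11.7). Of 10 muscle-fibre markers, 9 were measured, and none was below 7.27 on any array. The probe set of mouse Sod1 gave an effect of 0.40 in gastrocnemius and 0.16 in triceps, neither past the test (limma adjusted p = 0.18 and 0.682), and it does not check the human transgene. In whole muscle, fewer cells of a type and less RNA per cell cannot be told apart, here or in any result that follows.

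The genes called in gastrocnemius mostly had the same sign in triceps. Genes of denervated muscle such as Chrna1, Cdkn1a, Gadd45a and Tubb6 rose in both. Several complement, MHC class II and macrophage genes rose in gastrocnemius, with list medians near 0 in triceps, fast-fibre and fibroblast lists had medians below 0 in triceps and above 0 in gastrocnemius, respiratory-chain genes had medians below 0 in both, and the sarcolipin gene Sln had a larger fold change in triceps. No single gene passed the test of the difference between muscles. Among 7523 probe sets tested, 0 had an adjusted p under 0.05 for the difference (limma with Benjamini-Hochberg adjustment, 0% called, lowest adjusted p 0.368), and 791 (10.5%) had an unadjusted p under 0.05, of which 310 (4.12%) were higher and 481 (6.39%) lower. With array weights 1 probe set was called. Without NTg triceps replicate 1 the count was 22, of which 20 were lower and which included Rab2a, Abcc9, Ppp3cb and Acta2, without SOD1G93A triceps replicate 4 it was 2 and without SOD1G93A gastrocnemius replicate 1 it was 1. The median standard error of the difference was 0.23 on the log2 scale and the median half-width of its unadjusted 95% interval was 0.48. With 4 arrays a group, a muscle difference below that size could not be told from 0 for the typical gene, even before adjustment. Larger differences, such as 1.05 for Myh9 and −2.56 for Pla2g7, did not pass the adjusted test either.

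The effects within each muscle set the frame. In gastrocnemius, 1126 probe sets passed the test (15%), of which 548 (7.28%) were higher and 578 (7.68%) lower, and in triceps 83 passed (1.1%), of which 74 (0.984%) were higher and 9 (0.12%) lower. Taking 1 probe set a gene, 722 of 4826 genes were called in gastrocnemius (15%) and 57 in triceps (1.18%). These counts do not themselves compare the muscles. With all 20 arrays in the fit they were 901 and 16 probe sets. Of the 722 genes called in gastrocnemius, 642 (88.9%) had the same sign in triceps, against 69.1% of all genes, and 686 had the larger absolute effect in gastrocnemius, the muscle whose values chose them. Of the 57 called in triceps, 46 were also called in gastrocnemius, which is 80.7% of the triceps calls and 6.37% of the gastrocnemius calls; 45 of these rose in both and 1, Mgst3, fell in both. Across genes the effects had a Pearson correlation of 0.656, as a description only, since genes are not independent replicates, and their SD was 0.46 in gastrocnemius and 0.354 in triceps. At an unadjusted p under 0.05, 31.4% of genes passed in gastrocnemius and 19.2% in triceps, and of the 448 genes that passed in both, 437 had the same sign and 11 opposite signs.

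**Figure D1:**
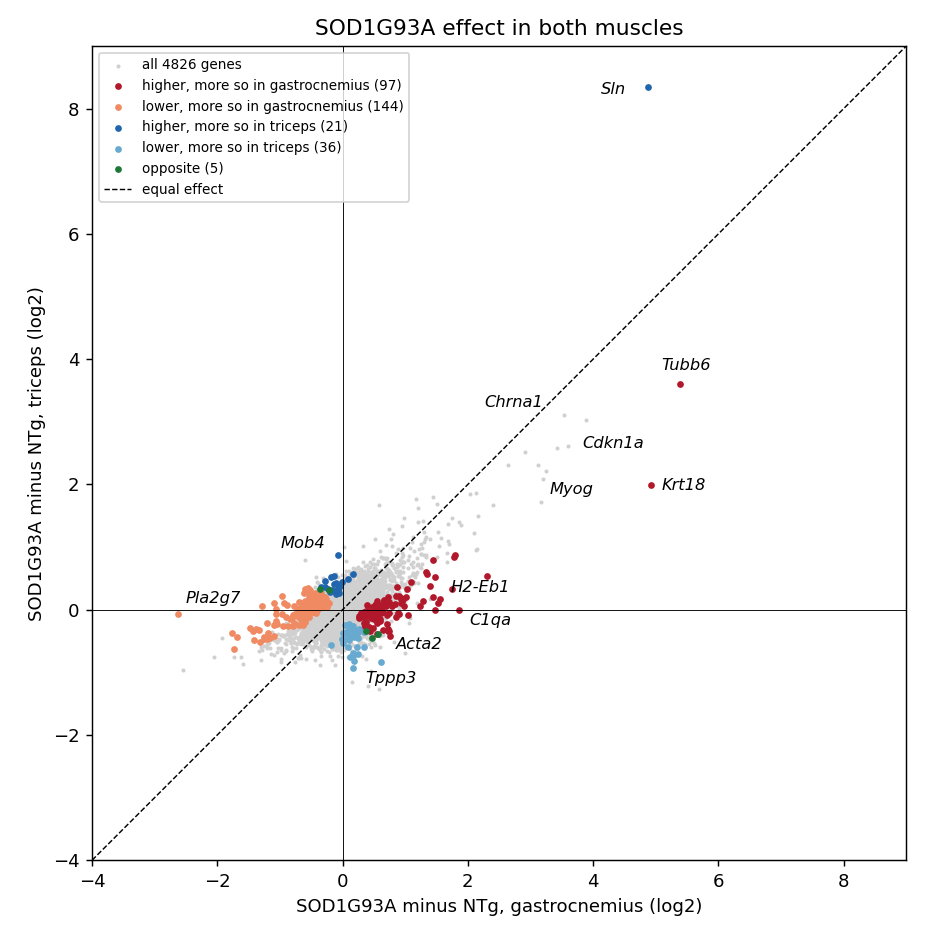
SOD1G93A minus NTg in gastrocnemius (x axis) against the same in triceps (y axis), both on the log2 scale, for 4826 genes. Coloured genes had enough signal to be named and an unadjusted p under 0.05 both for the difference between muscles and in at least 1 muscle, split by the muscle with the larger effect and its direction, and no gene passed the adjusted test; the dashed line marks equal effects, Sln lies above it and Tubb6 and Krt18 below it.

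The genes named below were taken in order of the moderated t of the muscle difference among 353 genes that had an unadjusted p under 0.05 (9.28% of all genes had one) and enough signal to be named. In 144 of them the larger effect was a lower value in gastrocnemius, in 97 a higher value in gastrocnemius, in 36 a lower value in triceps and in 21 a higher value in triceps, 5 had effects of opposite sign at an unadjusted p under 0.05 in both muscles, and 50 had no unadjusted p under 0.05 in either muscle. These classes used the effects themselves, so their direction is a description. The genes carried 28 other probe sets, and 25 of these had the same sign of the muscle difference. When the probe sets of a gene were averaged, the muscle difference was −0.38 for Rab2a, −0.47 for Ppp3ca, −0.36 for Ppp3cb, −0.61 for Mob4, −0.34 for Gaa and −0.37 for Tor1aip2, each over 1.5 times smaller than the value of the brightest probe set.

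Pla2g7 (chr17:43567994-43612202, GRCm38.p6), which encodes a secreted phospholipase that inactivates platelet-activating factor, fell in SOD1G93A gastrocnemius and was level in triceps. Its log2 signals were 6.25, 5.11, 5.19 and 4.58 in SOD1G93A gastrocnemius, against 7.37, 7.88, 8.03 and 8.33 in NTg gastrocnemius, and 7.36, 7.52, 7.02 and 5.34 in SOD1G93A triceps, against 6.78, 6.59, 6.68 and 7.45 in NTg triceps. The groups were apart in gastrocnemius and overlapped in triceps, where SOD1G93A replicate 4 was the lowest array. The effect was −2.62 in gastrocnemius, 0.162 times the NTg level (limma adjusted p = 0.00177), and −0.06 in triceps (limma adjusted p = 0.946). The muscle difference was −2.56 (SE 0.58, 95% interval −3.78 to −1.33), with a limma adjusted p of 0.368. It was past the threshold without SOD1G93A triceps replicate 4 (−3.05, limma adjusted p = 0.00952) with array weights (−2.97, limma adjusted p = 0.0462) and with replicate numbers as a block (limma adjusted p = 0.0423).

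Rab2a, Golph3, B3galnt2 and Reep1, which act in the secretory pathway, fell in gastrocnemius. Rab2a, a small GTPase of transport between the endoplasmic reticulum and the Golgi, had 9.78, 9.68, 9.70 and 9.59 in SOD1G93A gastrocnemius, against 10.26, 10.45, 10.46 and 10.36 in NTg gastrocnemius, and 10.45, 10.42, 10.18 and 10.00 in SOD1G93A triceps, against 10.44, 9.96, 9.96 and 10.23 in NTg triceps. The gastrocnemius groups did not overlap and the triceps groups did. It fell by 0.69 in gastrocnemius (limma adjusted p = 0.00374), and its muscle difference was −0.81 (SE 0.18). Its gastrocnemius call was lost when the probe sets of a gene were averaged. Golph3, a Golgi protein that binds phosphatidylinositol 4-phosphate, fell by 0.76 in gastrocnemius (limma adjusted p = 0.00406) with −0.08 in triceps, B3galnt2, a glycosyltransferase that acts on dystroglycan, fell by 0.52 (limma adjusted p = 0.0147) with 0.27 in triceps, and Reep1, which shapes the endoplasmic reticulum, fell by 0.55 (limma adjusted p = 0.0099) with 0.12 in triceps. Without SOD1G93A gastrocnemius replicate 4 the call of B3galnt2 was lost (limma adjusted p = 0.0613).

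A pair of catalytic subunits of calcineurin, the calcium-activated phosphatase that links nerve activity to fibre type, fell in gastrocnemius. Ppp3ca, its alpha catalytic subunit, had 9.01, 8.59, 8.80 and 8.80 in SOD1G93A gastrocnemius, against 9.46, 9.48, 9.38 and 9.44 in NTg gastrocnemius, and 9.39, 9.59, 9.29 and 8.99 in SOD1G93A triceps, against 9.43, 9.02, 9.08 and 9.29 in NTg triceps. The gastrocnemius groups were apart, and the triceps groups overlapped. Ppp3ca fell by 0.64 in gastrocnemius (limma adjusted p = 0.00678), and its muscle difference was −0.75 (SE 0.18). Ppp3cb, the beta catalytic subunit, fell by 0.93 in gastrocnemius (limma adjusted p = 0.0174), with 0.10 in triceps and a muscle difference of −1.03 (SE 0.33), but its second probe set had the opposite sign, and the gastrocnemius call was lost with averaged probe sets and without SOD1G93A gastrocnemius replicate 2 or replicate 4. Jph1, a junctophilin that holds the transverse tubule to the sarcoplasmic reticulum, fell by 1.07 in gastrocnemius (limma adjusted p = 0.0373), against −0.07 in triceps, and this call was lost in 7 of the leave-one-out fits.

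Among regulators of transcription and splicing, Ccnk, the cyclin partner of the transcriptional kinase CDK12, fell by 1.21 in gastrocnemius (limma adjusted p = 0.00177), with −0.22 in triceps. Rbfox1, a splicing factor of muscle and nerve, fell by 0.47 (limma adjusted p = 0.017), and Rbl2, a retinoblastoma-like repressor of the cell cycle, by 0.44 (limma adjusted p = 0.0387), with 0.16 and 0.27 in triceps. Tmpo, a protein of the nuclear lamina, fell by 0.54 (limma adjusted p = 0.0125), with 0.11 in triceps. Pdzrn3, a ubiquitin ligase that acts on the agrin receptor MuSK at the neuromuscular junction, fell by 0.61 (limma adjusted p = 0.0137), with 0.27 in triceps. The calls of Rbfox1 and Rbl2 in gastrocnemius were lost when single gastrocnemius arrays were left out, in 3 and 6 fits. Ccdc50 fell by 1.32 in gastrocnemius (limma adjusted p = 0.000117), and it was −0.52 in triceps. Its groups did not overlap in gastrocnemius, with 8.26, 8.21, 8.16 and 8.02 in SOD1G93A gastrocnemius, against 9.34, 9.65, 9.30 and 9.63 in NTg gastrocnemius, and they overlapped in triceps, with 8.11, 8.77, 8.22 and 7.95 in SOD1G93A triceps, against 8.79, 8.65, 8.81 and 8.89 in NTg triceps.

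Myh9 (chr15:77760585-77842175), the heavy chain of non-muscle myosin, led the genes that were higher in SOD1G93A gastrocnemius. It had 7.95, 8.0, 8.50 and 8.17 in SOD1G93A gastrocnemius, against 7.37, 7.23, 7.54 and 7.61 in NTg gastrocnemius, and 7.15, 6.81, 7.5 and 7.58 in SOD1G93A triceps, against 7.53, 7.67, 7.58 and 7.59 in NTg triceps. The SOD1G93A arrays were all above the NTg arrays in gastrocnemius, while in triceps they reached lower and overlapped. Myh9 rose by 0.72 in gastrocnemius (limma adjusted p = 0.00975), it was −0.33 in triceps (limma adjusted p = 0.276), and the muscle difference was 1.05 (SE 0.23, 95% interval 0.57 to 1.54). Other genes of the cortical cytoskeleton showed the same signs: Msn, the membrane linker moesin, rose by 0.89 in gastrocnemius (limma adjusted p = 0.0112) with −0.05 in triceps, and Tmsb4x, which binds actin monomers, rose by 0.59 (limma adjusted p = 0.0242) with −0.15 in triceps. The Msn call was lost without SOD1G93A gastrocnemius replicate 4 (limma adjusted p = 0.0503), and the Tmsb4x call in 5 leave-one-out fits.

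Several immune genes were among those higher in gastrocnemius. C1qb, a chain of the first complement component, had 7.17, 7.64, 7.41 and 7.26 in SOD1G93A gastrocnemius, against 6.49, 6.81, 6.11 and 6.36 in NTg gastrocnemius, and 7.17, 7.13, 7.41 and 7.41 in SOD1G93A triceps, against 6.93, 7.42, 7.04 and 7.32 in NTg triceps. The NTg gastrocnemius arrays stood below all other arrays, and the other 3 groups overlapped. C1qb rose by 0.93 in gastrocnemius (limma adjusted p = 0.00306), with 0.10 in triceps, and its muscle difference was 0.82 (SE 0.23). H2-Eb1, a chain of the MHC class II molecule that presents antigen to helper T cells, had 7.78, 8.72, 8.09 and 8.37 in SOD1G93A gastrocnemius, against 6.45, 6.93, 6.54 and 6.81 in NTg gastrocnemius, and 6.69, 7.77, 8.10 and 8.18 in SOD1G93A triceps, against 6.88, 7.62, 7.54 and 8.0 in NTg triceps. Again the groups were apart in gastrocnemius alone. H2-Eb1 rose 2.95-fold in gastrocnemius (limma adjusted p = 0.005), against 1.13-fold in triceps (limma adjusted p = 0.781), and its muscle difference was 1.39 (SE 0.42).

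Grn, which encodes the lysosomal and secreted growth factor progranulin, rose by 0.96 in gastrocnemius (limma adjusted p = 0.0034), with 0.14 in triceps. Serping1, the inhibitor of complement component C1, rose by 0.60 (limma adjusted p = 0.0264), with −0.18 in triceps, and this call was lost in 5 leave-one-out fits. The interferon-inducible gene Mndal rose by 1.24 (limma adjusted p = 0.00763), with 0.06 in triceps. Outside the immune genes, Eef1a1, the translation elongation factor form that adult muscle fibres largely replace with Eef1a2, rose by 1.4 in gastrocnemius (limma adjusted p = 0.00116), with 0.38 in triceps. Its arrays read 11.75, 12.34, 12.25 and 12.15 in SOD1G93A gastrocnemius, against 10.98, 10.76, 10.62 and 10.53 in NTg gastrocnemius, and 10.81, 10.75, 11.27 and 11.78 in SOD1G93A triceps, against 10.61, 10.80, 10.50 and 11.16 in NTg triceps. SOD1G93A triceps replicate 4 was the only triceps array to reach the SOD1G93A gastrocnemius range. Bbip1, a part of the ciliary BBSome, rose by 0.72 (limma adjusted p = 0.00353) and Cmip by 0.97 (limma adjusted p = 0.00681), while Dap was 0.55 in gastrocnemius and missed the threshold (limma adjusted p = 0.0561).

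**Figure D2:**
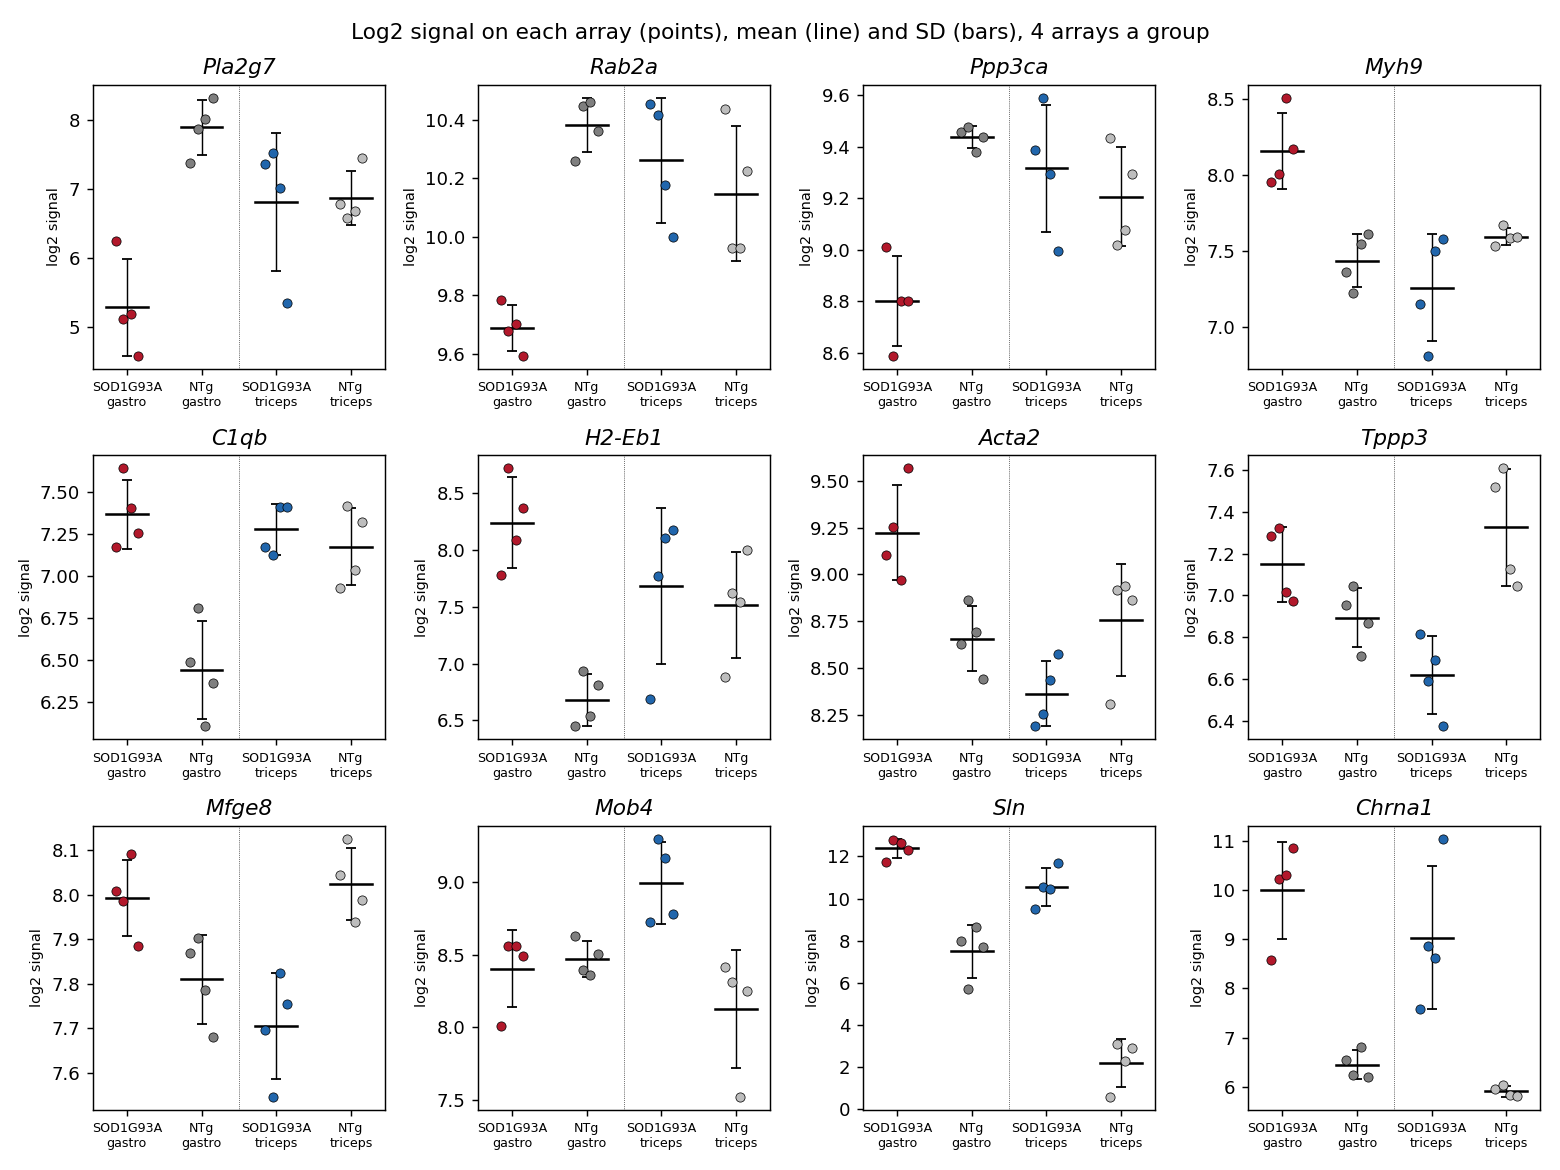
Log2 signal of 12 genes on each array (points), with the mean (line) and SD (bars) of the 4 arrays of each group, in the order SOD1G93A gastrocnemius, NTg gastrocnemius, SOD1G93A triceps and NTg triceps; each panel has its own axis. Pla2g7, Rab2a and Ppp3ca are low in SOD1G93A gastrocnemius alone, C1qb is low in NTg gastrocnemius alone, Tppp3 and Mfge8 are low in SOD1G93A triceps, and Chrna1 is high in both SOD1G93A groups.

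Tppp3 (chr8:105467492-105471422), a tubulin-binding protein of connective-tissue cells, fell in triceps, one of a pair of named genes of its class, with Ltbp4, to pass the test there. It had 7.28, 7.32, 7.01 and 6.97 in SOD1G93A gastrocnemius, against 6.95, 7.04, 6.71 and 6.87 in NTg gastrocnemius, and 6.82, 6.59, 6.69 and 6.37 in SOD1G93A triceps, against 7.52, 7.61, 7.13 and 7.05 in NTg triceps. The triceps groups were apart, and the gastrocnemius groups overlapped with the SOD1G93A arrays reaching higher. Tppp3 fell by 0.71 in triceps (limma adjusted p = 0.0286), it was 0.25 in gastrocnemius (limma adjusted p = 0.257), and the muscle difference was 0.96 (SE 0.21, 95% interval 0.51 to 1.41). The triceps call was lost in 4 leave-one-out fits, those without NTg triceps replicate 1 or 2 or SOD1G93A triceps replicate 2 or 4, and with all 20 arrays or array weights. Ltbp4, which holds latent TGF-beta in the matrix, fell by 0.56 in triceps (limma adjusted p = 0.0338), with −0.18 in gastrocnemius and a muscle difference of 0.38 (SE 0.17), and its call was lost in 9 leave-one-out fits.

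The other genes among the top 12 of this class, with the larger fall in triceps, did not pass the test there. Mfge8, a secreted glycoprotein that bridges apoptotic cells to phagocytes, had 8.01, 7.99, 8.09 and 7.89 in SOD1G93A gastrocnemius, against 7.87, 7.90, 7.79 and 7.68 in NTg gastrocnemius, and 7.70, 7.55, 7.82 and 7.76 in SOD1G93A triceps, against 8.04, 8.13, 7.94 and 7.99 in NTg triceps. The triceps groups were apart, although the effect there was small at −0.32 (limma adjusted p = 0.116). Fstl1, a secreted glycoprotein of mesenchymal cells, was −0.60 in triceps and 0.34 in gastrocnemius, a muscle difference of 0.94 (SE 0.26), and its triceps groups did not overlap either. Dcn, the collagen-binding proteoglycan decorin, was −0.36 in triceps and 0.12 in gastrocnemius. Ldhb, the lactate dehydrogenase subunit of oxidative fibres, was −0.75 and 0.11, and Atp2a1, the fast-fibre calcium pump SERCA1, was −0.84 and 0.61, with overlapping groups for both genes in triceps. The remaining members named by the rule, Nudt7, Notch3, Rcan2, Atp11b, B4galt1 and Cavin2, had triceps effects of −0.60, −0.32, −0.36, −0.33, −0.48 and −0.44 and gastrocnemius effects of 0.23, 0.27, 0.34, 0.12, 0.10 and 0.18.

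Sln (chr9:53850251-53853849) had the largest muscle difference of all genes tested. It encodes sarcolipin, a small protein that binds the SERCA calcium pump and lowers the calcium moved per ATP. Its signals were 11.76, 12.78, 12.66 and 12.31 in SOD1G93A gastrocnemius, against 7.99, 5.70, 8.63 and 7.70 in NTg gastrocnemius, and 9.52, 10.56, 10.43 and 11.71 in SOD1G93A triceps, against 0.59, 3.10, 2.27 and 2.88 in NTg triceps. Both pairs of groups were far apart, and the level stayed higher in gastrocnemius in both genotypes, by 1.82 in SOD1G93A mice and by 5.29 in NTg mice. Sln rose 29.3-fold in gastrocnemius (limma adjusted p = 0.000203) and 325-fold in triceps (limma adjusted p = 6.52e-07), and the muscle difference was −3.47 (SE 0.84, 95% interval −5.24 to −1.70). The NTg triceps signals were dim, and with values under 5 set to 5 the triceps effect was 5.55 and the muscle difference −0.68 (limma adjusted p = 0.728), so the size of both rests on how dim values are read.

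Mob4, a member of the STRIPAK phosphatase complex, rose in triceps and not in gastrocnemius by its brightest probe set. It had 8.01, 8.56, 8.56 and 8.49 in SOD1G93A gastrocnemius, against 8.63, 8.39, 8.36 and 8.50 in NTg gastrocnemius, and 8.73, 9.29, 9.17 and 8.78 in SOD1G93A triceps, against 8.41, 8.31, 7.52 and 8.25 in NTg triceps. The triceps groups were apart and the gastrocnemius groups overlapped. The effect was 0.87 in triceps (limma adjusted p = 0.0324) and −0.07 in gastrocnemius (limma adjusted p = 0.844), and the muscle difference was −0.93 (SE 0.26). The second probe set of Mob4 was above 0 in both muscles, with 0.56 in triceps, 0.28 in gastrocnemius and a muscle difference of −0.28. The triceps call was lost without NTg triceps replicate 2 or 3 or SOD1G93A triceps replicate 2 or 3, and the effect was 0.66 without NTg triceps replicate 3. Grina, Psmc5, Psmc6, Ufd1 and Nrip1 also rose in triceps and were not called in gastrocnemius. Psmc6 and Psmc5, ATPase subunits of the proteasome cap, rose by 0.56 and 0.62 in triceps (limma adjusted p = 0.0131 and 0.0349), against 0.26 and 0.30 in gastrocnemius, and Ufd1, a cofactor of the p97 segregase, by 0.47 (limma adjusted p = 0.0369), against 0.24. Nrip1, a nuclear receptor corepressor, rose by 1.28 in triceps (limma adjusted p = 0.0278), against 0.73, and Grina by 0.57 (limma adjusted p = 0.0402), against 0.17. For Psmc5, Psmc6, Ufd1 and Nrip1 the 95% interval of the muscle difference held 0, and that of Grina was −0.79 to −0.01. Among leave-one-out fits the triceps call was lost in 12 for Grina, 9 for Ufd1, 6 for Psmc5, 3 for Nrip1 and 0 for Psmc6. The Psmc6 call was lost with averaged probe sets (0.40, limma adjusted p = 0.121) and with all 20 arrays, and the Ufd1 call with averaged probe sets (limma adjusted p = 0.0676).

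The remaining genes among the top 12 of the class with the larger rise in triceps passed in neither muscle. They included Gfer, a sulfhydryl oxidase of mitochondrial protein import, with 0.45 in triceps and −0.27 in gastrocnemius, and Gaa, the lysosomal enzyme that breaks down glycogen, with 0.36 and −0.35. Cd55, which limits complement on the cell surface, had 0.53 in triceps and −0.13 in gastrocnemius, and Tor1aip2, which activates torsin ATPases, had 0.34 and −0.23. Cog6, Spryd7, Rpp25l, Anp32e, Mylip and Tsnax had triceps effects between 0.27 and 0.42 and gastrocnemius effects between −0.29 and −0.06.

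Opposite effects were few. Acta2 (chr19:34240336-34255585), the smooth-muscle actin gene, had 9.10, 9.25, 8.97 and 9.57 in SOD1G93A gastrocnemius, against 8.63, 8.87, 8.69 and 8.44 in NTg gastrocnemius, and 8.19, 8.25, 8.43 and 8.57 in SOD1G93A triceps, against 8.31, 8.92, 8.94 and 8.86 in NTg triceps. In gastrocnemius the SOD1G93A arrays were all higher, and in triceps they were lower than every NTg array but replicate 1. Acta2 rose by 0.57 in gastrocnemius (limma adjusted p = 0.0256), and the triceps value of −0.39 did not pass (limma adjusted p = 0.202). The muscle difference was 0.96 (SE 0.22, 95% interval 0.49 to 1.43). It passed without NTg triceps replicate 1 (1.11, limma adjusted p = 0.0259), while the gastrocnemius call was lost in 5 leave-one-out fits.

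Gorasp2, which stacks Golgi cisternae, was the one gene of this class whose groups were apart in both muscles. It had 8.35, 8.22, 8.13 and 8.29 in SOD1G93A gastrocnemius, against 8.54, 8.47, 8.46 and 8.41 in NTg gastrocnemius, and 8.43, 8.38, 8.75 and 8.50 in SOD1G93A triceps, against 8.27, 8.06, 8.11 and 8.36 in NTg triceps. Its values were lower in SOD1G93A gastrocnemius and higher in SOD1G93A triceps. The effects were −0.22 and 0.31, neither past the test (limma adjusted p = 0.157 and 0.143), and the muscle difference was −0.54 (SE 0.15). Ubr3, an N-end rule ubiquitin ligase, had −0.36 in gastrocnemius and 0.33 in triceps. Dhrs3, which reduces retinaldehyde, had 0.48 and −0.45, and Tmem234 had 0.38 and −0.34. The second probe set of Tmem234 gave 0.02 and 0.19, which are not of opposite sign, and with averaged probe sets its muscle difference of 0.72 was 0.28. Over 4826 genes, 11 had opposite signs with an unadjusted p under 0.05 in both muscles, and this count was between 5 and 26 when single arrays were left out.

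Several genes known to rise after denervation, among them Chrna1, Myog, Cdkn1a and Gadd45a, were called higher in both muscles. Their triceps calls were lost with all 20 arrays in the fit, and the cause of the rise was not tested. Chrna1 (chr2:73563281-73580338), a subunit of the acetylcholine receptor of muscle, had 8.57, 10.23, 10.30 and 10.85 in SOD1G93A gastrocnemius, against 6.55, 6.24, 6.81 and 6.20 in NTg gastrocnemius, and 7.59, 8.86, 8.62 and 11.03 in SOD1G93A triceps, against 5.96, 6.05, 5.83 and 5.81 in NTg triceps. Every SOD1G93A array was above every NTg array, with replicate 1 lowest in both muscles and replicate 4 highest. Chrna1 rose 11.6-fold in gastrocnemius (limma adjusted p = 0.00135) and 8.66-fold in triceps (limma adjusted p = 0.00664). The muscle difference was 0.42 (SE 0.76), and its 95% interval of −1.17 to 2.02 allows either muscle to have the larger rise. Without SOD1G93A triceps replicate 1 it was −0.057, without replicate 4 of that group it was 1.09, and with array weights it was 0.97.

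Myog (chr1:134290004-134292548), the myogenic transcription factor myogenin, which binds E-box sequences in the promoters of receptor subunit genes, had 8.34, 9.18, 9.97 and 9.75 in SOD1G93A gastrocnemius, against 5.74, 6.14, 6.32 and 6.07 in NTg gastrocnemius, and 7.57, 7.57, 7.80 and 10.20 in SOD1G93A triceps, against 5.83, 6.33, 6.25 and 5.87 in NTg triceps. The groups were apart in both muscles, and SOD1G93A triceps replicate 4 was the highest of all arrays. Myog rose 9.48-fold in gastrocnemius (limma adjusted p = 0.000772) and 4.65-fold in triceps (limma adjusted p = 0.0237), with a muscle difference of 1.03 (SE 0.65, 95% interval −0.34 to 2.39). Without SOD1G93A triceps replicate 4 the difference was 1.67 (limma adjusted p = 0.0738). Its triceps call was lost in 3 leave-one-out fits.

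The promoters of these 2 genes are shown because the factor and the receptor gene rose together in both muscles. They are the 250 bases before the start in RefSeq on GRCm38.p6, read in the direction of the gene, with matches to the motif CAGNTG on either strand (N is any base) in capitals.
Chrna1, chr2:73580339-73580588, minus strand: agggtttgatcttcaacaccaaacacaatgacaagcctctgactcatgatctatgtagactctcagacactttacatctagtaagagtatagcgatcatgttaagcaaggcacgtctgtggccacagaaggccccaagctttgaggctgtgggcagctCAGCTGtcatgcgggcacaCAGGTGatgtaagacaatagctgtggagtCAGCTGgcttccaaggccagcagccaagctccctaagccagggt
Myog, chr1:134289754-134290003, plus strand: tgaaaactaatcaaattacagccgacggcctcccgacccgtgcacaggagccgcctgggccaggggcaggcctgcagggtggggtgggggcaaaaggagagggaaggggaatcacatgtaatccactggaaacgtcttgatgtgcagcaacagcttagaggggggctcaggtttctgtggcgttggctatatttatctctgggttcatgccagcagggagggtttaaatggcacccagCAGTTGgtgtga
Chrna1 held 3 matches and Myog 1. Among 32851 promoters of the same length, 44.8% held at least 1 match and 3.25% at least 3. A match describes the letters and is not a binding site.

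Cdkn1a, the cell-cycle inhibitor p21, rose 12.1-fold in gastrocnemius and 6.13-fold in triceps (limma adjusted p = 0.000187 and 0.00407), with a muscle difference of 0.98 (SE 0.60). Gadd45a, a growth-arrest gene induced by denervation, rose 10.7-fold and 5.99-fold (limma adjusted p = 0.000187 and 0.00344), with a muscle difference of 0.84 (SE 0.57) that was 1.27 without SOD1G93A triceps replicate 4 and 0.55 without NTg triceps replicate 1. Odc1, the first enzyme of polyamine synthesis, rose 2.16-fold and 2.12-fold, with a muscle difference of 0.02 (95% interval −0.44 to 0.48), and Myf6, the myogenic factor MRF4, rose 2.46-fold and 2.36-fold, with 0.05 (−0.47 to 0.58). Mt2, a metallothionein, rose 4.12-fold and 3.59-fold, and Rb1, the retinoblastoma protein, 4.46-fold and 2.82-fold.

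In 18 of the 46 genes called in both muscles the rise in triceps was the larger, and none of the following passed the test of the difference. Jun, an immediate-early transcription factor, rose 2.31-fold in gastrocnemius and 3.09-fold in triceps, with a muscle difference of −0.42 (SE 0.35). The second probe set of Jun gave 1.39 in gastrocnemius and 1.20 in triceps on the log2 scale, so the muscle with the larger rise depends on the probe set, and the averaged difference was −0.11. Nabp1, a single-stranded DNA binding protein, rose 2.24-fold and 3.41-fold, a difference of −0.60 (SE 0.30). Ampd3, an AMP deaminase, rose 2.73-fold and 3.46-fold, and Mdm2, the ligase that degrades p53, 1.61-fold and 2.05-fold. Tubb6, a tubulin of regenerating fibres, went the other way, with 41.7-fold in gastrocnemius and 12.1-fold in triceps and a muscle difference of 1.78 (SE 0.75). Its arrays read 7.71, 8.69, 8.75 and 8.92 in SOD1G93A gastrocnemius, against 4.37, 2.03, 2.24 and 3.92 in NTg gastrocnemius, and 7.62, 8.13, 7.13 and 8.94 in SOD1G93A triceps, against 4.78, 5.14, 3.09 and 4.39 in NTg triceps. The SOD1G93A ranges of the muscles overlapped and the NTg arrays were dim, and with values under 5 set to 5 the muscle difference was 0.61.

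Gene groups were then described by the number of measured members and their median, beside the 4826 genes tested, whose median muscle difference was 0.00 with 50.5% above 0. Of those genes, 219 (4.54%) were higher and 229 (4.75%) lower at an unadjusted p under 0.05 for the muscle difference, and no member of any group passed the adjusted test of that difference. In gastrocnemius 7.58% of genes were called higher and 7.38% lower, and in triceps 1.06% higher and 0.124% lower. Members of a group can share cells and arrays and are not replicates. The lists were chosen with earlier results of these data known, so their counts beside these shares are a description only.

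**Figure D3:**
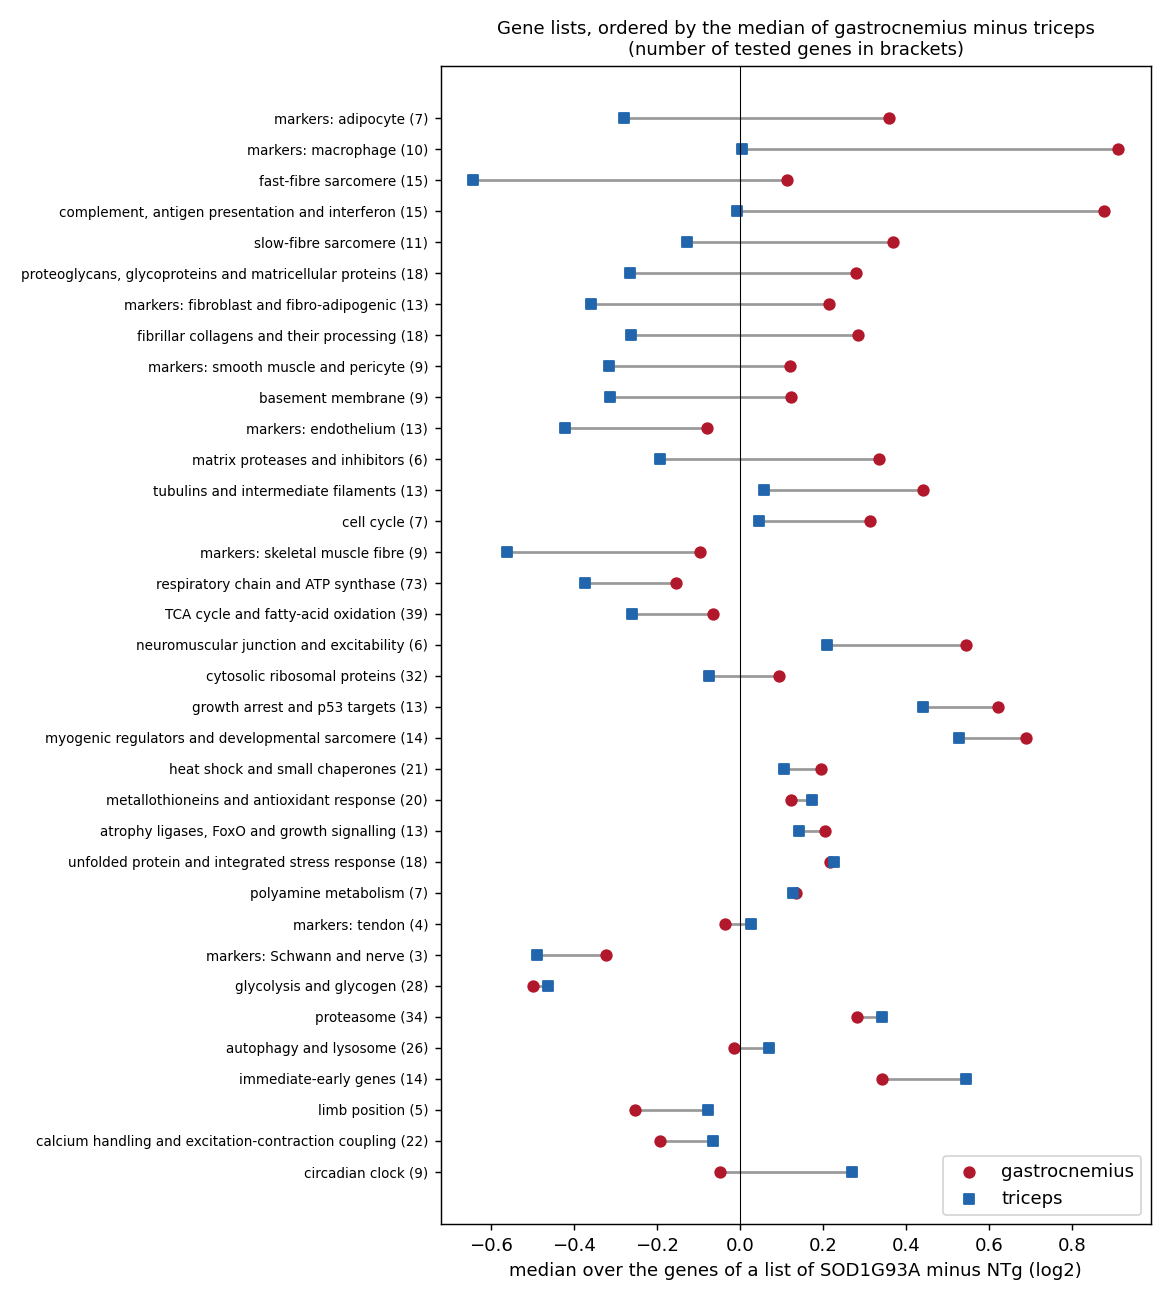
Median over the measured genes of each of 35 lists of SOD1G93A minus NTg (log2), in gastrocnemius (red circles) and triceps (blue squares), ordered by the median muscle difference with the number of genes in brackets. Macrophage and complement lists lie far right in gastrocnemius and near 0 in triceps, matrix and fibroblast lists lie on either side of 0, and fast-fibre genes lie lowest in triceps.

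The complement, antigen presentation and interferon genes were higher in SOD1G93A gastrocnemius and level in triceps. The list median was 0.88 in gastrocnemius and −0.01 in triceps over 15 of 30 listed genes, and all 15 had a muscle difference above 0 (median 0.76), 7 at an unadjusted p under 0.05. In gastrocnemius 7 rose and none fell, and in triceps none was called. C1qa, another chain of the first complement component, rose by 1.85 in gastrocnemius (limma adjusted p = 0.0299), with −0.01 in triceps, though one NTg gastrocnemius array at 2.88 was far below the other 3, and the call was lost in 3 leave-one-out fits. Without that array the muscle difference of 1.86 was 1.09. H2-Aa, the alpha chain of MHC class II, rose 3.37-fold in gastrocnemius (limma adjusted p = 0.00679), against 1.26-fold in triceps. Relative to the NTg mean of the same muscle, the list medians were 0.54, 1.32, 0.82 and 0.86 in SOD1G93A gastrocnemius, against 0.10, 0.25, −0.14 and −0.20 in NTg gastrocnemius, and −0.49, 0.01, 0.59 and 0.23 in SOD1G93A triceps, against −0.22, 0.07, −0.39 and 0.52 in NTg triceps. The gastrocnemius groups were apart and the triceps groups overlapped. The median of gastrocnemius minus triceps was 0.30 in SOD1G93A mice and −0.41 in NTg mice.

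Macrophage markers moved with these genes. Of 18 listed, 10 were measured, of which C1qa and C1qb are also in the complement list. The median was 0.91 in gastrocnemius and 0.00 in triceps, all 10 had a muscle difference above 0 (median 0.80), and 7 rose in gastrocnemius and 1, Lgals3, in triceps. Csf1r, the receptor for the macrophage growth factor CSF1, rose by 0.90 in gastrocnemius (limma adjusted p = 0.0183), with −0.07 in triceps. Its signals were 8.15, 8.66, 8.43 and 8.71 in SOD1G93A gastrocnemius, against 7.43, 8.01, 7.53 and 7.40 in NTg gastrocnemius, and 7.91, 7.78, 8.76 and 8.68 in SOD1G93A triceps, against 7.99, 8.82, 8.26 and 8.35 in NTg triceps. The gastrocnemius groups were apart, with the call lost in 4 leave-one-out fits, and the triceps groups overlapped. The call was also lost with averaged probe sets (0.47, limma adjusted p = 0.0927), and one of 2 other probe sets of Csf1r gave −0.14 in gastrocnemius and a muscle difference of 0.16. Lyz1, lysozyme, had 1.05 in gastrocnemius (limma adjusted p = 0.0453), a call lost in 9 leave-one-out fits, and −0.08 in triceps. The summed linear signal of the markers was 1754 to 2616 in SOD1G93A gastrocnemius, 916 to 1227 in NTg gastrocnemius, 1245 to 2671 in SOD1G93A triceps and 1287 to 2204 in NTg triceps, so NTg gastrocnemius was the low group and the SOD1G93A gastrocnemius range lay within that of SOD1G93A triceps. The part of these cells in the complement and MHC results was not tested. Lgals3, galectin-3, rose 6.24-fold in gastrocnemius and 4.97-fold in triceps, with a muscle difference of 0.33 (SE 0.57).

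Extracellular matrix lists had medians above 0 in gastrocnemius and below 0 in triceps, with almost no gene past the test in either muscle. Fibrillar collagens and their processing enzymes had a median of 0.28 in gastrocnemius and −0.26 in triceps over 18 of 24 listed genes; 16 were above 0 in gastrocnemius, 17 were below 0 in triceps, and 15 had a muscle difference above 0 (median 0.49). None rose and 1 fell in gastrocnemius, and none was called in triceps. Col3a1, type III collagen, had a muscle difference of 0.89 (SE 0.39), and Col5a2, which starts collagen fibrils, one of 1.08 (SE 0.48). Proteoglycans and matricellular proteins had 0.28 and −0.26 over 18 of 29 genes, with all 18 muscle differences above 0 (median 0.53). Fn1, fibronectin, had 0.41 in gastrocnemius and −0.46 in triceps, and Tgfbi, a matrix protein induced by TGF-beta, had 0.43 and −0.28. Basement membrane genes had 0.12 and −0.31 over 9 of 14 genes, all 9 below 0 in triceps; Nid1, nidogen, had a muscle difference of 0.76 (SE 0.30) and Col4a1, type IV collagen, one of 0.81 (SE 0.37). Among 6 of 17 matrix proteases and inhibitors the median muscle difference was 0.40, and Mmp2, which cleaves type IV collagen, had 0.76 (SE 0.33).

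On single arrays the collagen medians were −0.00, 0.41, 0.55 and 0.13 in SOD1G93A gastrocnemius, against 0.31, 0.25, −0.12 and −0.27 in NTg gastrocnemius, and −0.68, −0.22, 0.29 and −0.27 in SOD1G93A triceps, against 0.04, 0.06, −0.15 and −0.04 in NTg triceps. The groups overlapped in both muscles. The collagen median of the muscle difference was 0.33 without SOD1G93A triceps replicate 1, the lowest of those arrays, and 0.64 without replicate 3, the highest. Fibroblast and fibro-adipogenic markers, which share Col1a1 and Col3a1 with the collagens and Dcn, Lum and Mfap5 with the proteoglycans, had medians of 0.21 in gastrocnemius and −0.36 in triceps over 13 of 16 genes, and all 13 had a muscle difference above 0 (median 0.52), 7 at an unadjusted p under 0.05. Cd34, a surface marker of fibro-adipogenic and endothelial cells, had 0.11 and −0.40, and Islr, a marker of stromal cells, 0.08 and −0.59. The summed signal of these markers was 8749 to 9814 in SOD1G93A gastrocnemius, 6367 to 9184 in NTg gastrocnemius, 7053 to 11255 in SOD1G93A triceps and 8908 to 11779 in NTg triceps. Their part in the matrix values was not tested.

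Markers of vessels and fat also had median muscle differences above 0. Endothelial markers had medians of −0.08 in gastrocnemius and −0.42 in triceps over 13 of 21 genes, with 12 muscle differences above 0, and Egfl7, secreted by endothelium, had −0.22 and −0.68. The endothelial array medians were apart in triceps and overlapped in gastrocnemius. Smooth-muscle and pericyte markers had 0.12 and −0.32 over 9 of 13 genes. Their array medians were 0.10, 0.15, 0.12 and 0.22 in SOD1G93A gastrocnemius, against 0.02, 0.03, 0.04 and −0.04 in NTg gastrocnemius. In SOD1G93A triceps they were −0.45, −0.45, −0.23 and −0.28, against 0.07, −0.05, −0.02 and −0.07 in NTg triceps. The groups were apart in both muscles, in opposite directions. Within that list Acta2, Notch3 and Myl9 had muscle differences of 0.96, 0.58 and 0.52, while Abcc9, the sulfonylurea receptor of the ATP-sensitive potassium channel, had −0.94 (SE 0.28). Abcc9 fell by 0.60 in gastrocnemius (limma adjusted p = 0.0473), a call lost in 10 leave-one-out fits, and it had 0.34 in triceps. Adipocyte markers had a median muscle difference of 0.93 over 7 of 13 genes, which was 0.26 without NTg triceps replicate 4. Tendon and Schwann markers, with 4 and 3 genes measured, had medians of −0.04 each, and no lymphocyte, granulocyte or erythroid marker passed the filter on low values.

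**Figure D4:**
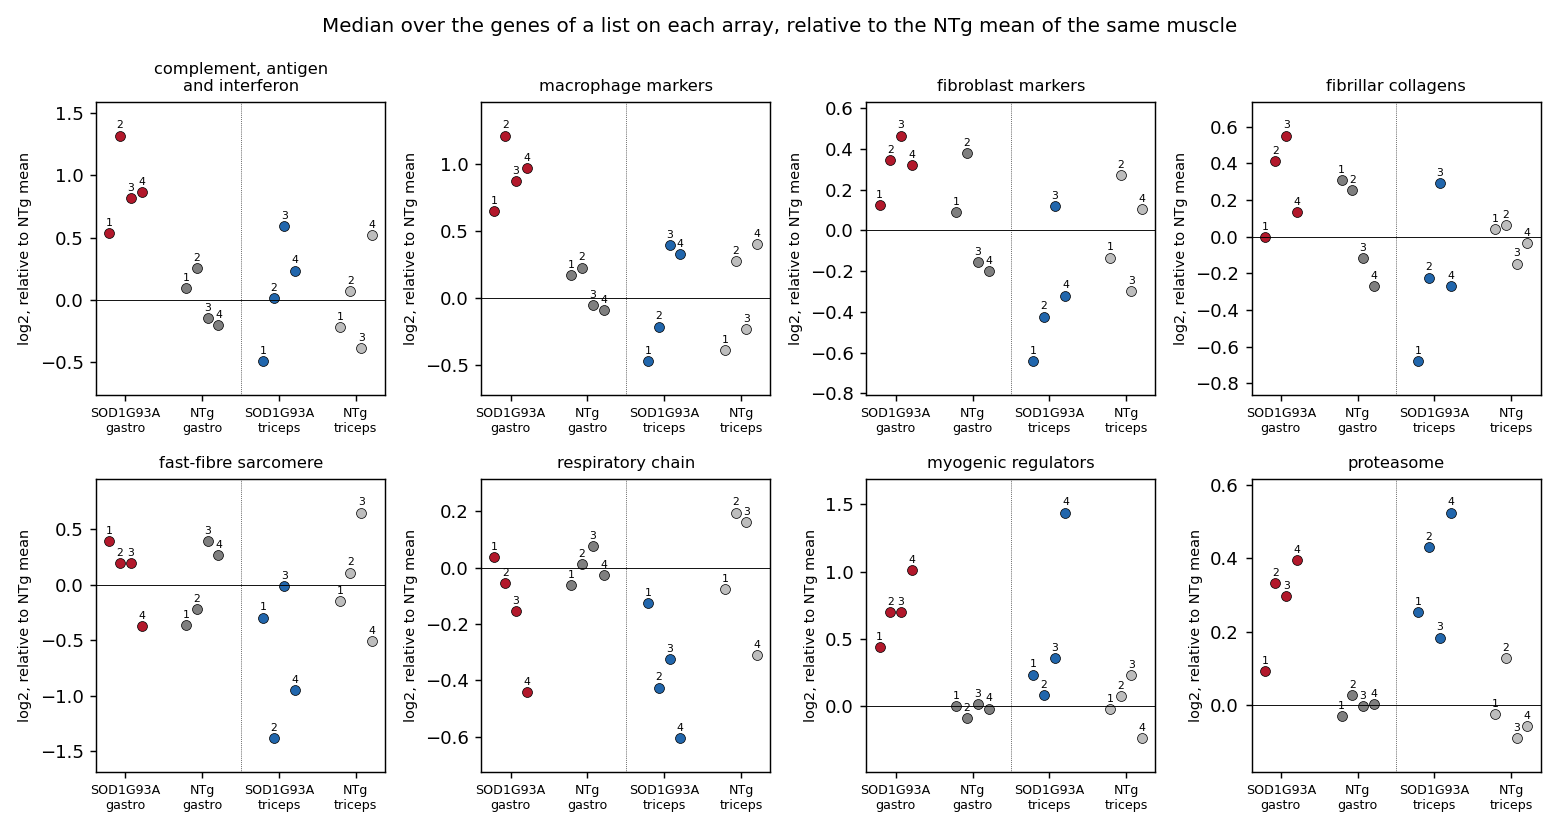
Median over the measured genes of 8 lists on each array, on the log2 scale relative to the NTg mean of the same muscle, with replicate numbers beside the points; groups run from SOD1G93A gastrocnemius to NTg triceps. Complement and macrophage medians are apart only in gastrocnemius, fibroblast and collagen medians overlap in both muscles, and SOD1G93A triceps replicate 4 is high for myogenic regulators and low for respiratory-chain genes.

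Fast-fibre sarcomere genes, which encode the contractile proteins of rapid glycolytic fibres, had values below 0 in triceps and a median near 0 in gastrocnemius. Over 15 of 17 genes the median was 0.11 in gastrocnemius and −0.64 in triceps, all 15 were below 0 in triceps, and 13 had a muscle difference above 0 (median 0.76). None was called in triceps, and 1 fell in gastrocnemius. Mylpf, the fast regulatory light chain, had 0.16 in gastrocnemius and −0.93 in triceps, and Tnni2, fast troponin I, had 0.18 and −0.82. Atp2a1 had 12.56, 12.46, 12.71 and 12.01 in SOD1G93A gastrocnemius, against 11.11, 11.63, 12.42 and 12.11 in NTg gastrocnemius, and 11.17, 9.69, 11.65 and 10.75 in SOD1G93A triceps, against 11.30, 11.87, 12.33 and 11.14 in NTg triceps. Its groups overlapped in both muscles, and SOD1G93A triceps replicate 2 was the lowest. The list medians were 0.39, 0.20, 0.19 and −0.37 in SOD1G93A gastrocnemius, against −0.37, −0.22, 0.39 and 0.26 in NTg gastrocnemius, and −0.30, −1.38, −0.01 and −0.95 in SOD1G93A triceps, against −0.15, 0.11, 0.65 and −0.51 in NTg triceps, with overlap in both muscles. The median muscle difference was 0.45 without NTg triceps replicate 3.

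Among the general muscle-fibre markers, Ckm, muscle creatine kinase, had a muscle difference of 1.85 (SE 0.97) with SOD1G93A triceps replicate 2 at 7.27 and the other 3 arrays of its group at 10.95 or above, and it was 0.80 without that array. The median of those markers was 0.29 and turned to −0.13 under quantile normalization. Trim54, a ubiquitin ligase of the sarcomere in the same list, had the opposite sign: it fell by 0.68 in gastrocnemius (limma adjusted p = 0.00841), with 0.03 in triceps. Slow-fibre genes differed between the muscles in every genotype, with a median of gastrocnemius minus triceps of 5.18 in SOD1G93A and 4.68 in NTg mice. Their median muscle difference was 0.71 over 11 of 14 genes, none passed an unadjusted p of 0.05, and it lay between 0.30 and 1.11 when single arrays were left out.

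Energy metabolism split by pathway. Respiratory-chain and ATP synthase subunits had medians of −0.15 in gastrocnemius and −0.37 in triceps over 73 of 79 genes, and most were below 0 in both muscles, with 6 above 0 in gastrocnemius and 0 above 0 in triceps. In 69 the muscle difference was above 0, with a median of 0.23, which was 0.05 under quantile normalization. None was called in either muscle. Atp5d, a subunit of ATP synthase, had −0.01 in gastrocnemius and −0.47 in triceps, where its groups did not overlap, and Uqcrc2, a core subunit of complex III, had 0.02 and −0.41. The list medians on single arrays were 0.04, −0.06, −0.16 and −0.44 in SOD1G93A gastrocnemius, against −0.06, 0.01, 0.08 and −0.03 in NTg gastrocnemius, and −0.13, −0.43, −0.33 and −0.60 in SOD1G93A triceps, against −0.08, 0.19, 0.16 and −0.31 in NTg triceps. SOD1G93A replicate 4 was the lowest in both muscles, and the groups overlapped in both. Genes of the TCA cycle and fatty-acid oxidation had medians of −0.07 and −0.26 over 39 of 41 genes. In gastrocnemius 1 was called higher and 3 lower, and in triceps none was called. Pdk2 was among those lower in gastrocnemius, with a muscle difference of −0.47, and its gastrocnemius call held in every alternative run. Slc25a20, which carries acylcarnitines into mitochondria, was the gene called higher. It rose by 0.56 in gastrocnemius (limma adjusted p = 0.0343), with −0.14 in triceps, a call lost in 4 leave-one-out fits. The second probe set of Slc25a20 gave 0.22 and 0.19, and with averaged probe sets the muscle difference of 0.71 was 0.37.

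Glycolysis and glycogen genes had negative medians in both muscles, −0.50 in gastrocnemius and −0.46 in triceps over 28 of 37 genes and a median muscle difference of −0.04. In gastrocnemius 11 fell and none rose, and in triceps none was called. A few differed more. Phka1 and Phkb, regulatory subunits of the kinase that activates glycogen breakdown, fell by 1.39 and 0.70 in gastrocnemius (limma adjusted p = 0.0069 and 0.0116), with −0.31 and 0.01 in triceps. Phka1 had 10.17, 9.17, 9.12 and 8.60 in SOD1G93A gastrocnemius, against 10.60, 10.66, 10.56 and 10.79 in NTg gastrocnemius, and 10.39, 10.28, 10.10 and 8.99 in SOD1G93A triceps, against 10.39, 10.11, 10.33 and 10.17 in NTg triceps. The gastrocnemius groups were apart, and in triceps SOD1G93A replicate 4 alone was low. Gpd2, the mitochondrial glycerol-3-phosphate dehydrogenase, fell by 0.97 in gastrocnemius (limma adjusted p = 0.00596), with −0.07 in triceps. The Phkb call was lost without SOD1G93A gastrocnemius replicate 4 (limma adjusted p = 0.0515).

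Protein breakdown lists had similar medians in both muscles. Proteasome subunits had a median of 0.28 in gastrocnemius and 0.34 in triceps over 34 of 37 genes, with 11 called higher in gastrocnemius, 4 in triceps and none lower, and a median muscle difference of −0.07. The list medians were 0.09, 0.33, 0.30 and 0.39 in SOD1G93A gastrocnemius, against −0.03, 0.03, −0.00 and 0.00 in NTg gastrocnemius, and 0.25, 0.43, 0.18 and 0.53 in SOD1G93A triceps, against −0.03, 0.13, −0.09 and −0.06 in NTg triceps. Every SOD1G93A array was above every NTg array of its muscle. Autophagy and lysosome genes had medians of −0.01 and 0.07 over 26 of 32 genes. Map1lc3a, an LC3 protein of the autophagosome, rose 2.51-fold in gastrocnemius (limma adjusted p = 0.00116), against 1.51-fold in triceps (limma adjusted p = 0.137), with a muscle difference of 0.73 (SE 0.28), while Tfeb, the transcription factor of lysosomal genes, fell by 0.67 in gastrocnemius (limma adjusted p = 0.019), with −0.11 in triceps, a call lost in 3 leave-one-out fits. Fbxo32, the atrophy ligase atrogin-1, had −0.06 and 0.40, neither past the test.

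Junction and excitability genes had medians of 0.54 in gastrocnemius and 0.21 in triceps over 6 of 24 genes, with 3 called higher and 1 lower in gastrocnemius and 1 higher in triceps. Clcn1, the chloride channel that keeps the fibre membrane quiet, fell by 1.18 in gastrocnemius (limma adjusted p = 0.00938), with −0.37 in triceps and a muscle difference of −0.82 (SE 0.37). Nos1, the neuronal nitric oxide synthase of the sarcolemma, belongs to the myogenic list described below, as its 1 gene called lower in gastrocnemius. Nos1 fell by 1.34 (limma adjusted p = 0.017), with −0.32 in triceps and a muscle difference of −1.02 (SE 0.48). That call was lost without replicate 4 of either gastrocnemius group, and the difference was −0.64 without the SOD1G93A array. Clcn1 had 7.24, 6.33, 6.32 and 6.12 in SOD1G93A gastrocnemius, against 7.72, 8.0, 7.46 and 7.55 in NTg gastrocnemius, and 7.48, 7.56, 7.0 and 6.22 in SOD1G93A triceps, against 7.49, 7.52, 7.25 and 7.46 in NTg triceps. The gastrocnemius groups were apart, and SOD1G93A triceps replicates 3 and 4 were the only triceps arrays within the SOD1G93A gastrocnemius range. Myogenic regulators and developmental sarcomere genes had medians of 0.69 in gastrocnemius and 0.53 in triceps over 14 of 22 genes, with 6 called higher and 1 lower in gastrocnemius and 3 higher in triceps. Myod1, a myogenic regulator of satellite cells and denervated fibres, rose 4.37-fold in gastrocnemius (limma adjusted p = 0.00594), against 1.94-fold in triceps (limma adjusted p = 0.235), and Ankrd1, a stress-response protein of the sarcomere, rose 14.8-fold in gastrocnemius (limma adjusted p = 0.00471), against 8.19-fold in triceps, just short of the threshold (limma adjusted p = 0.0527). The muscle differences, 1.17 (SE 0.59) and 0.86 (SE 1.03), had intervals that held 0. The Ankrd1 difference was 1.90 without SOD1G93A triceps replicate 4, 0.48 without replicate 1 of that group and 0.31 with averaged probe sets, and its second probe set gave −0.23. Chrnb1, the receptor beta subunit, rose 3.35-fold in gastrocnemius (limma adjusted p = 0.00902), against 2.77-fold in triceps (limma adjusted p = 0.0738).

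Calcium-handling genes had a median muscle difference of −0.18 over 22 of 29 genes, with 6 above 0. In gastrocnemius 3 rose and 5 fell, and in triceps 2 rose. Tubulins and intermediate filaments had medians of 0.44 in gastrocnemius and 0.06 in triceps over 13 of 22 genes, with 6 called higher and 1 lower in gastrocnemius and Tubb6 called in triceps. Tuba1a and Tubb5, tubulins of growing cells, rose by 0.86 and 0.73 in gastrocnemius (limma adjusted p = 0.0233 and 0.00414), with −0.11 and 0.21 in triceps; the Tuba1a call was lost in 4 leave-one-out fits. Krt18, an intermediate filament protein of epithelia, rose 30.3-fold in gastrocnemius (limma adjusted p = 0.0051), against 3.98-fold in triceps (limma adjusted p = 0.265), and its muscle difference of 2.93 (SE 1.33) was 3.02 with values under 5 set to 5 and 2.02 to 3.75 when single arrays were left out. Cytosolic ribosomal proteins had a median muscle difference of 0.20 over 32 of 64 genes, with 30 above 0, which turned to −0.06 under quantile normalization, so their direction depends on the scaling.

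Stress-response groups showed small median differences. Heat shock genes had medians of 0.20 in gastrocnemius and 0.11 in triceps over 21 of 24 genes, with 6 called higher in gastrocnemius and none in triceps. Hspb8, a small chaperone of chaperone-assisted autophagy, rose 2.73-fold in gastrocnemius (limma adjusted p = 0.00102), against 1.74-fold in triceps (limma adjusted p = 0.0738). The second probe set of Hspb8 gave 1.09 and 1.03 on the log2 scale, a muscle difference of 0.06. Metallothionein and antioxidant genes had 0.12 and 0.17 over 20 of 28 genes. Gpx1, a glutathione peroxidase, rose by 0.80 in gastrocnemius (limma adjusted p = 0.00703), with 0.08 in triceps and a muscle difference of 0.71 (SE 0.23), and Sat1, which acetylates polyamines for export, rose by 0.73 (limma adjusted p = 0.00835), with 0.13 in triceps. Sat1 had 7.02, 7.37, 7.33 and 7.70 in SOD1G93A gastrocnemius, against 6.46, 6.85, 6.77 and 6.41 in NTg gastrocnemius, and 6.95, 6.53, 6.57 and 7.01 in SOD1G93A triceps, against 6.55, 6.74, 6.70 and 6.57 in NTg triceps. The groups were apart in gastrocnemius and overlapped in triceps. Immediate-early genes had 0.34 and 0.55 over 14 of 25 genes, with 11 of the 14 muscle differences below 0, and their median of −0.16 turned to 0.03 without SOD1G93A triceps replicate 1. Circadian clock genes had a median muscle difference of −0.26 over 9 of 17 genes, none past an unadjusted p of 0.05. Growth-arrest and p53 target genes had 0.62 and 0.44 over 13 of 17 genes, unfolded-protein genes 0.22 and 0.23 over 18 of 26, polyamine genes 0.13 and 0.13 over 7 of 11, and genes of atrophy and growth signalling 0.20 and 0.14 over 13 of 25. Cell-cycle genes had 0.31 and 0.05 over 7 of 26 genes, with a median muscle difference of 0.36. Under the filter at 60% that value was −0.27, which is the muscle difference of Pcna alone. Limb-position genes had −0.25 and −0.08 over 5 of 17.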

How the data were processed

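RNA from whole muscle was hybridised to 1-colour expression arrays, per the labels' protocols. The authors deposited log2 signals made with MAS5, per the submitters' processing notes, which give neither its version nor its settings. Values were used as deposited. Of 10748 probe sets, the 30% with the lowest mean signal (log2 below 5.87) were dropped and 7523 fitted with 4 group means in limma 3.58.1 (R 4.3.3, lmFit, eBayes with a trend, 12 residual degrees of freedom). The muscle difference and both effects were contrasts of that fit, adjusted by Benjamini-Hochberg over 7523 probe sets at 0.05. The number of arrays limits the precision, and p-values measure the spread between these arrays.

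Platform annotation gave 1 symbol to 9874 probe sets, several to 387 and none to 487, and 9862 were found in RefSeq GRCm38.p6. Each gene was represented by the brightest probe set that had 1 symbol. Named genes had a mean of at least 7 in 1 group. They were up to 12 of each class, up to 4 of each of 37 lists, the triceps calls and mouse Sod1. Of the 37 lists, 2 had no tested member. Members and lists were chosen with earlier results of these data known. In simulated data for the muscle difference, 61% of changes of log2 1 and 91% of log2 2 were recovered among 7523 probe sets, with 6 false calls. The simulated noise was normal, independent between arrays and of equal spread on all arrays. The weights estimated for the real arrays ran from 0.37 to 2.0. These shares check the code and are not the power of the comparison made here. Alternatives were other scalings and filters, a floor of 5, all 20 arrays, array weights, no trend, a robust prior, averaged probe sets, replicate blocks and leaving out each array.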

Additional observations from a re-analysis of the deposited data

Results flagged for a closer look

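In 11 of 212 groups of 4 arrays, over 53 genes, the lowest or highest array stood apart from the other 3 by more than Dixon's criterion for 4 values. Chance alone flags about 1 in 20 such groups. In the SOD1G93A gastrocnemius group these were Ubr3 in replicate 2 (8.43, lowest), B3galnt2 in replicate 4 (7.43, lowest), and Mob4 and Anp32e in replicate 1 (8.01 and 8.03, both lowest). In SOD1G93A triceps they were Rbl2 in replicate 2 (7.42, highest), Atp11b in replicate 4 (6.98, highest) and Cavin2 in replicate 3 (8.91, highest). In NTg triceps they were Acta2 in replicate 1 (8.31, lowest), Golph3 in replicate 1 (8.71, highest), Rpp25l in replicate 3 (7.68, highest) and Anp32e in replicate 2 (8.12, lowest). None was in NTg gastrocnemius.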

How the results depend on the processing

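The count of probe sets called for the muscle difference, 0 as reported, was 1 with array weights, 1 with a replicate block, 2 without both SOD1G93A arrays numbered 4 and 0 to 22 when single arrays were left out. The gastrocnemius count of 1126 was 2441 with array weights and 349 (without SOD1G93A replicate 4) to 1599 when single arrays were left out. The triceps count of 83 was 16 with all 20 arrays, 53 with array weights, 177 without both SOD1G93A arrays numbered 1, 52 without both numbered 4, and 38 (without NTg replicate 2) to 166 (without SOD1G93A replicate 3) when single arrays were left out. The 11 genes of opposite sign were 31 with array weights, 4 with the 60% filter, 17 under quantile normalization and 5 to 26 when single arrays were left out. The cause was not tested. The fits without both arrays of a number were chosen after seeing the data. Replicate numbers were not taken as pairs, since no label says which arrays share a mouse. The main fit took the 16 arrays as independent, although the design text gives 4 mice of each genotype for both muscles. Of 8 equal-numbered pairs, 5 correlated above 0.1 and 4 matched their own number best. SOD1G93A replicates 1 and 4 had correlations of 0.575 and 0.621 between muscles, and SOD1G93A replicates 2 and 3 had −0.097 and −0.038. NTg replicates 1, 2, 3 and 4 had 0.245, 0.133, 0.207 and −0.087. Whether equal numbers mark the same mouse was not tested. The fixed replicate block called Pla2g7 (limma adjusted p = 0.0423). A random replicate block called 0, with a lowest limma adjusted p of 0.12 against 0.368 in the main fit.

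Among 172 named genes, the muscle difference turned sign in 2 alternative fits with all arrays and in 11 with an array left out. With single arrays left out, Chrna1 lay between −0.057 (without SOD1G93A triceps replicate 1) and 1.09, Ccn1 between −0.36 and 0.0010, Oaz1 between −0.016 and 0.072, Tef between −0.044 and 0.14, and Mbp between −0.45 and 0.46. Oaz1 was −0.13 under quantile normalization and Tef −0.055 with array weights. Of the 102 named genes called in gastrocnemius, 66 were called in every alternative run, and of the 52 called in triceps, 11, among them Sln, Jun, Mt2, Nabp1, Ampd3 and Tubb6. The triceps calls of Chrna1, Myog, Cdkn1a, Gadd45a, Odc1, Myf6, Rb1, Mdm2 and Lgals3 were lost with all 20 arrays. With 4 arrays a group, muscle differences near the median half-width of 0.48 could not be resolved, and fold changes from signals under 5 depend on the floor.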
